A study of Mus musculus with 14 samples.

Results

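Car1, Car2, Car4, Slc26a3, Slc9a3, Slc4a4, Slc5a8, Cftr, Aqp8 and Aqp4 encode the carbonic anhydrases, exchangers, channels and water channels with which colonocytes move bicarbonate, chloride, sodium, short-chain fatty acids and water. These 10 genes, chosen by function, were found among the 37680 genes of the count table by their gene identifiers, and all 10 passed the filter on low counts in every comparison. Total poly(A) RNA-seq was done on crypt epithelium that was stripped with EDTA from the whole colon of adult mice on a C57/BL6 enriched background. The groups were WT mice on water (4 libraries), Smad4 KO mice on water (4), WT mice after 3 d of 2.5% dextran sulfate sodium (DSS, which damages the lining of the colon) in the drinking water (3), and Smad4 KO mice after the same DSS treatment (3). The KO mice carried Smad4 f/f alleles and Villin-CreERT2, a Cre recombinase that tamoxifen activates and that is made in intestinal epithelium from the villin promoter, so the deletion was aimed at epithelial cells only. Whether the WT mice of these libraries were given tamoxifen is not given in the sources used here. The labels number the libraries as replicates without stating that each was a separate mouse, so the p-values measure the spread between these libraries.

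In the colon, cytosolic and membrane-bound carbonic anhydrases turn carbon dioxide and water into bicarbonate and protons. Surface colonocytes export the bicarbonate in exchange for luminal chloride and the protons in exchange for luminal sodium, and water follows the absorbed salt, whereas cells of the crypt can secrete chloride and bicarbonate. Smad4 is the shared partner of the receptor-regulated SMADs that carry TGF-β and BMP signals to the nucleus.

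Smad4 was checked first. Normalized to CPM, the count scaled to the size of the library, with the TMM method, Smad4 stood at 133 ± 18.5 CPM (SD, n = 4) in WT on water, 176 ± 6.14 (SD, n = 3) in WT after DSS and 42.3 ± 1.79 (SD, n = 3) in KO after DSS. The library labelled KO water replicate 1 had 158 CPM, within the WT range of 118 to 159, whereas replicates 2 to 4 had 39.6 ± 6.27 (SD, n = 3). It was kept under its label, and the main results of the comparisons that use it are given with and without it. The study's captions count fewer KO water replicates than the labels give, without naming which were used. Total counts ran from 12882827 to 26087231 per library. Mitochondrial genes held 30.6% and 32.8% of the counts in WT water replicates 3 and 4 and 21.4% in KO water replicate 4, and at most 8.23% in the other 11 libraries. All 3 KO libraries after DSS and 2 of the 3 WT libraries after DSS have the name prefix D, while none of the KO water libraries does, so for KO mice DSS and prefix cannot be told apart. The colonocyte markers were detected throughout, and all 8 of them passed the filter, as did all 6 distal colon Hox genes.

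The promoters of Car4 and Aqp8 are shown because these were the members called as changed after DSS, and that of Slc26a3 because it encodes the main apical chloride exchanger and was not called. RefSeq promoter windows in GRCm38.p6, from 250 bases before to 50 after each start, were searched for 7 of the 10 members. Car1 and Car2 had no entry, and Aqp4 was left out of the search. The capitals mark GTCT and its reverse complement AGAC, the half-site that SMAD proteins bind, searched on both strands.
Car4, chr11:84957504-84957803, plus strand: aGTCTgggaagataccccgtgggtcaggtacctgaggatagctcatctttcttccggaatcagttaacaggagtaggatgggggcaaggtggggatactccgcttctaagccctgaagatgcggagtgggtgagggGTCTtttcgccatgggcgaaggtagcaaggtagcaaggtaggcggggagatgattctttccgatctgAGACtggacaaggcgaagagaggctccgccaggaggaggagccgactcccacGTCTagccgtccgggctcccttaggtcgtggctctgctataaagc
Aqp8, chr7:123462044-123462343, plus strand: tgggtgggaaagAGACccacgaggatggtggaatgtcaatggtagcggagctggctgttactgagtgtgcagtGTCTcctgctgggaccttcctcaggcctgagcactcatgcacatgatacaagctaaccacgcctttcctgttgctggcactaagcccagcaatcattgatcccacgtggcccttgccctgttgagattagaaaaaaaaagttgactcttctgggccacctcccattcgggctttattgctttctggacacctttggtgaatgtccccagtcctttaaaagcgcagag
Slc26a3, chr12:31437969-31438268, plus strand: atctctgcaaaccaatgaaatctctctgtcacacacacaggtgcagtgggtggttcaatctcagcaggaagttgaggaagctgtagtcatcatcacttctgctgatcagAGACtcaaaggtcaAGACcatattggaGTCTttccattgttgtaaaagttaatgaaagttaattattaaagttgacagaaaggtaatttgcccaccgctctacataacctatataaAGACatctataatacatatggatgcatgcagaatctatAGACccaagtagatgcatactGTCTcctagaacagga
The Car4 window held 4 half-sites, the Aqp8 window 2 and the Slc26a3 window 6. Such a short motif is common, and 88.0% of all 32851 promoter windows of this length held at least 1. The GC-rich SMAD element GGCGCC, which 11.9% of all windows held, was in none of these 3 windows. Among the members searched, it was found in the window of Cftr and in 1 of the 2 windows of Slc4a4. Each of the 3 windows held 1 copy of TTTAT or its reverse complement ATAAA, a core that CDX factors bind, as 40.0% of all windows did.

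The 10 genes differed widely in level. Divided by the annotated exon length, the mean over the 14 libraries was 1184 CPM per kb for Car1, which was rank 40 of 15106 genes with a length, 409 for Car2, 194 for Car4, 123 for Aqp8, 119 for Aqp4, 69.3 for Slc5a8, 59.3 for Slc26a3, 18.1 for Cftr, 8.95 for Slc9a3 and 6.28 for Slc4a4. In WT on water, per-length levels did not overlap between Car1 (991 to 2286 CPM per kb), Car2 (349 to 497) and Car4 (203 to 261), nor between Aqp8 (148 to 210.2) and Aqp4 (45.6 to 100.3). They overlapped between Car4 and Aqp8, among Aqp4, Slc5a8 and Slc26a3, between Cftr and Slc9a3, and between Slc9a3 and Slc4a4. The order of the water channels turned over among the groups. On water the mean of Aqp8 stood above that of Aqp4 in both genotypes, at 178 against 66.7 CPM per kb in WT and 121 against 100.2 in KO, and after DSS that of Aqp4 stood above Aqp8, at 157 against 118 in WT and 175 against 58.7 in KO. In KO on water the ranges overlapped, and Aqp4 was above Aqp8 in replicates 2 and 3 (119 against 111 and 131 against 98.3). In WT after DSS the lowest Aqp4 library (143 CPM per kb) was above the highest Aqp8 library (139). The annotated model of Slc9a3 is a single transcript of 2490 bases, a multiple of 3, and may hold no UTRs, in which case its per-length level may not be comparable with the others.

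**Figure D1:**
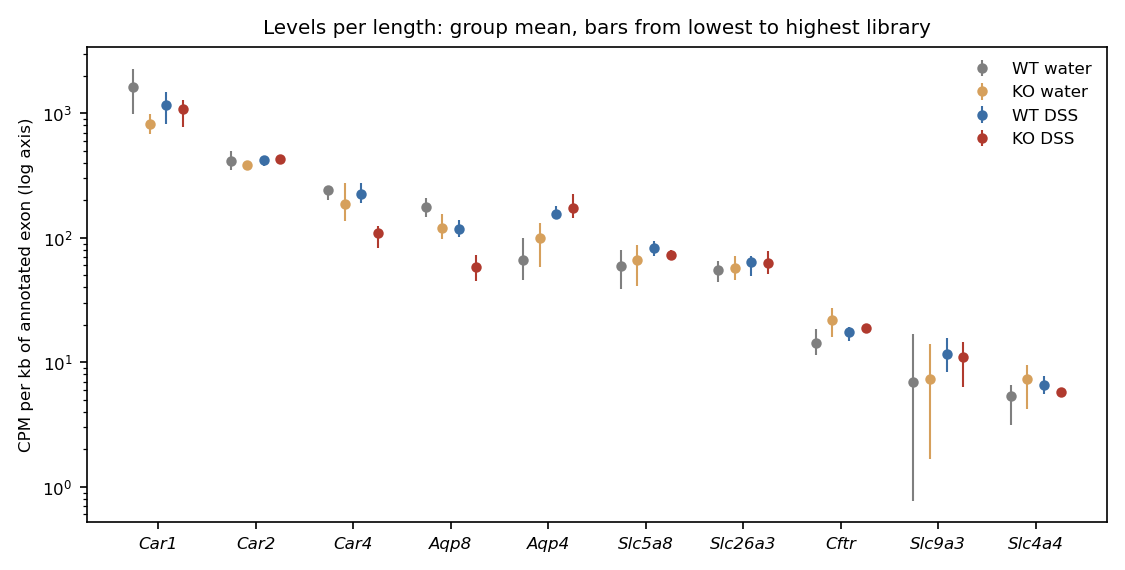
Level of the 10 transport genes in CPM per kb of annotated exon (log axis), as the mean of each group (4 libraries on water, 3 after DSS) with bars from the lowest to the highest library. Car1 and Car2 lead in every group, the mean of Aqp8 lies above that of Aqp4 on water, with overlapping ranges in KO, and below it after DSS, and Slc9a3 spans the widest range, from 0.77 to 16.8 in WT on water.

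The comparison of KO with WT after DSS asks how the injured epithelium differs without Smad4. Of the 10 members 2 fell, Car4 and Aqp8, to 0.49 and 0.50 of the WT level, none rose, and the other 8 had log2 fold changes between -0.19 and 0.17. Among all 14241 genes tested, 0.801% were called (114 genes, edgeR quasi-likelihood test, Benjamini-Hochberg adjusted p under 0.05), and 0.442% were called as lower. The median log2 fold change was -0.09 over the members and 0.00 over all genes tested.

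Car4 (ENSMUSG00000000805, chromosome 11 of mm9, 84771288 to 84779546, plus strand) encodes a carbonic anhydrase anchored to the apical membrane. After DSS it had 395, 545 and 376 CPM in the WT libraries and 244, 236 and 163 in the KO libraries. All KO libraries lay below all WT libraries. The log2 fold change was -1.03 (SE 0.19, edgeR adjusted p = 0.045, lower in 3 of 3 KO libraries). Aqp8 (ENSMUSG00000030762, chromosome 7, 130605808 to 130611517, plus strand), a water channel of surface colonocytes, had 161, 177 and 219 CPM in WT and 116, 90.6 and 71.4 in KO after DSS. Again the groups did not overlap, and the log2 fold change was -1.0 (SE 0.18, edgeR adjusted p = 0.043). Groups that do not overlap were found for 22.1% of all genes tested and for 2 of the 10 members.

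Both calls rested on the choice of model and on single libraries. They were lost when all 14 libraries were fitted in 1 model, where edgeR gave adjusted p = 0.37 for Car4 and 0.21 for Aqp8 and 0.0132% of genes were called, and they were kept with DESeq2 (adjusted p = 5.4e-07 and 1.3e-06), which called 2.00% of genes as lower. Leaving out any 1 of the 6 libraries ended the call of Car4 (edgeR adjusted p from 0.064 to 0.14), and leaving out WT DSS replicate 2 or 3 or KO DSS replicate 2 or 3 ended that of Aqp8 (edgeR adjusted p from 0.088 to 0.14), while the log2 fold changes stayed between -1.13 and -0.84 for Car4 and between -1.19 and -0.84 for Aqp8. Leaving out WT DSS replicate 3 is also the comparison within the name prefix D, with log2 fold changes of -1.13 (SE 0.20, edgeR adjusted p = 0.069) for Car4 and -0.86 (SE 0.18, edgeR adjusted p = 0.105) for Aqp8.

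**Figure D2:**
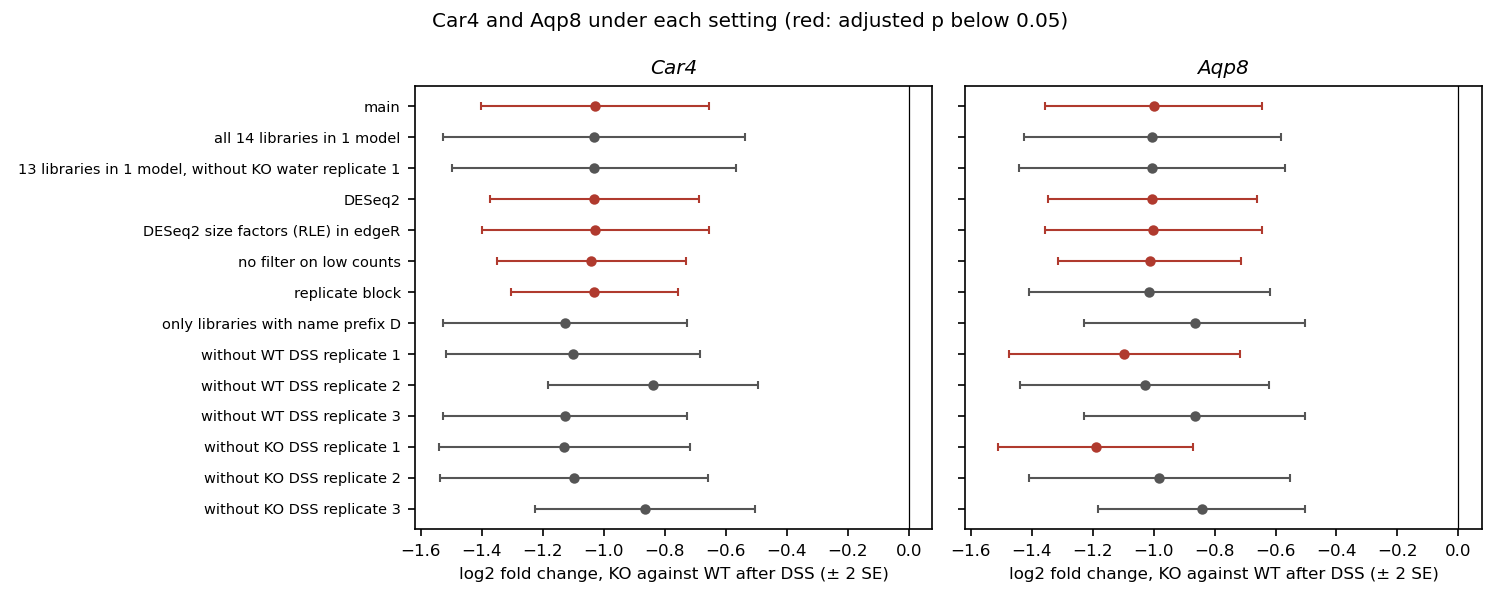
Log2 fold change of Car4 and Aqp8, KO against WT after DSS, under the setting reported (main) and each alternative, with bars of 2 SE to each side and red where the adjusted p is below 0.05. Every estimate lies below 0, between -1.19 and -0.84, and the colour changes with the model and the library left out.

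Markers of cell types were measured in the same libraries. Of the 8 colonocyte markers 2 fell in KO after DSS, Krt20, a keratin of mature surface cells (log2 fold change -0.85, edgeR adjusted p = 0.032), and Ceacam20 (-0.60, edgeR adjusted p = 0.040), and the summed level of the 8 was 17855 to 19981 CPM in WT and 16139.7 to 19341 in KO. Of the 7 goblet cell markers Fcgbp and Zg16 fell, and the sum ranged from 14178 to 15690.1 CPM in WT and from 11648 to 12164 in KO. The median log2 fold change of the 7 was -0.16, and 2 of them, Agr2 and Spdef, were above 0. Of the 6 crypt base stem cell markers 1 rose, Smoc2 (log2 fold change 1.53, edgeR adjusted p = 0.0052), from a mean of 27.1 CPM in WT to 78.3 in KO. The sum of the 6 was 159 to 215 CPM in WT and 242 to 256 in KO. Their median log2 fold change was 0.04, with 4 of the 6 above 0, and the means of Ascl2 and Axin2 were lower in KO. Of the 6 fibroblast markers 4 were tested and 3 rose (Col1a1, Col1a2 and Col3a1), at a sum of 0.28 to 1.89 CPM in WT, where Lum was at 0, and 7.20 to 12.96 in KO. Of the 5 myeloid markers S100a8 rose, from a mean of 1.19 CPM in WT to 11.1 in KO. The sum of the 5 was 11.6 to 12.6 CPM in WT and 16.4 to 24.9 in KO. That higher sum was due to S100a8, as the median log2 fold change of the 5 was -0.13. Of the 5, 2 were above 0, and the means of Csf1r, Cd68 and Itgam were lower in KO. In the other comparisons no marker of any list was called. The part of these shifts in the lower Car4 and Aqp8 was not tested, and in bulk RNA fewer cells of a type and less RNA per cell cannot be told apart.

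The other 8 members overlapped between the genotypes after DSS. Car1 and Car2 encode the cytosolic carbonic anhydrases. Car1 (ENSMUSG00000027556) had 1416, 974 and 1757 CPM in WT and 1421, 911 and 1507 in KO, and Car2 (ENSMUSG00000027562) had 681, 803 and 769.5 in WT and 709, 816 and 781 in KO. Car2 was the steadiest of the carbonic anhydrases, and its log2 fold change of 0.04 had an interval of 2 SE to each side from -0.18 to 0.25. For Car1, which varied more between libraries, that interval ran from -0.58 to 0.36.

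Among the transporters, Slc26a3 (ENSMUSG00000001225), the apical chloride-bicarbonate exchanger whose loss causes congenital chloride diarrhea in people, had 315, 459 and 457 CPM in WT and 499, 372 and 326 in KO after DSS. The log2 fold change was -0.04, with an interval of 2 SE to each side from -0.41 to 0.34. Slc5a8 (ENSMUSG00000020062), a sodium-coupled transporter of butyrate and other monocarboxylates, had 379.7, 436 and 498 CPM in WT and 421, 368 and 377 in KO. Slc4a4 (ENSMUSG00000060961), the basolateral sodium-bicarbonate cotransporter, stood at 60.6, 67.9 and 84.8 CPM in WT and 60.7, 59.6 and 66.5 in KO. Slc9a3 (ENSMUSG00000036123), the apical sodium-proton exchanger NHE3, was low and uneven, with 39.3, 20.8 and 27.4 CPM in WT and 36.1, 30.6 and 15.7 in KO, and its interval of 2 SE to each side, from -0.68 to 0.52, was the widest of the 10. Cftr (ENSMUSG00000041301), the cAMP-regulated apical anion channel, had 149.8, 115 and 139.6 CPM in WT and 149, 151 and 143 in KO. Aqp4 (ENSMUSG00000024411), a basolateral water channel, had 962, 780.0 and 758 CPM in WT and 1205, 768 and 820.1 in KO. Unlike Aqp8, it overlapped between the genotypes (log2 fold change 0.17, SE 0.18, edgeR adjusted p = 0.69).

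**Figure D3:**
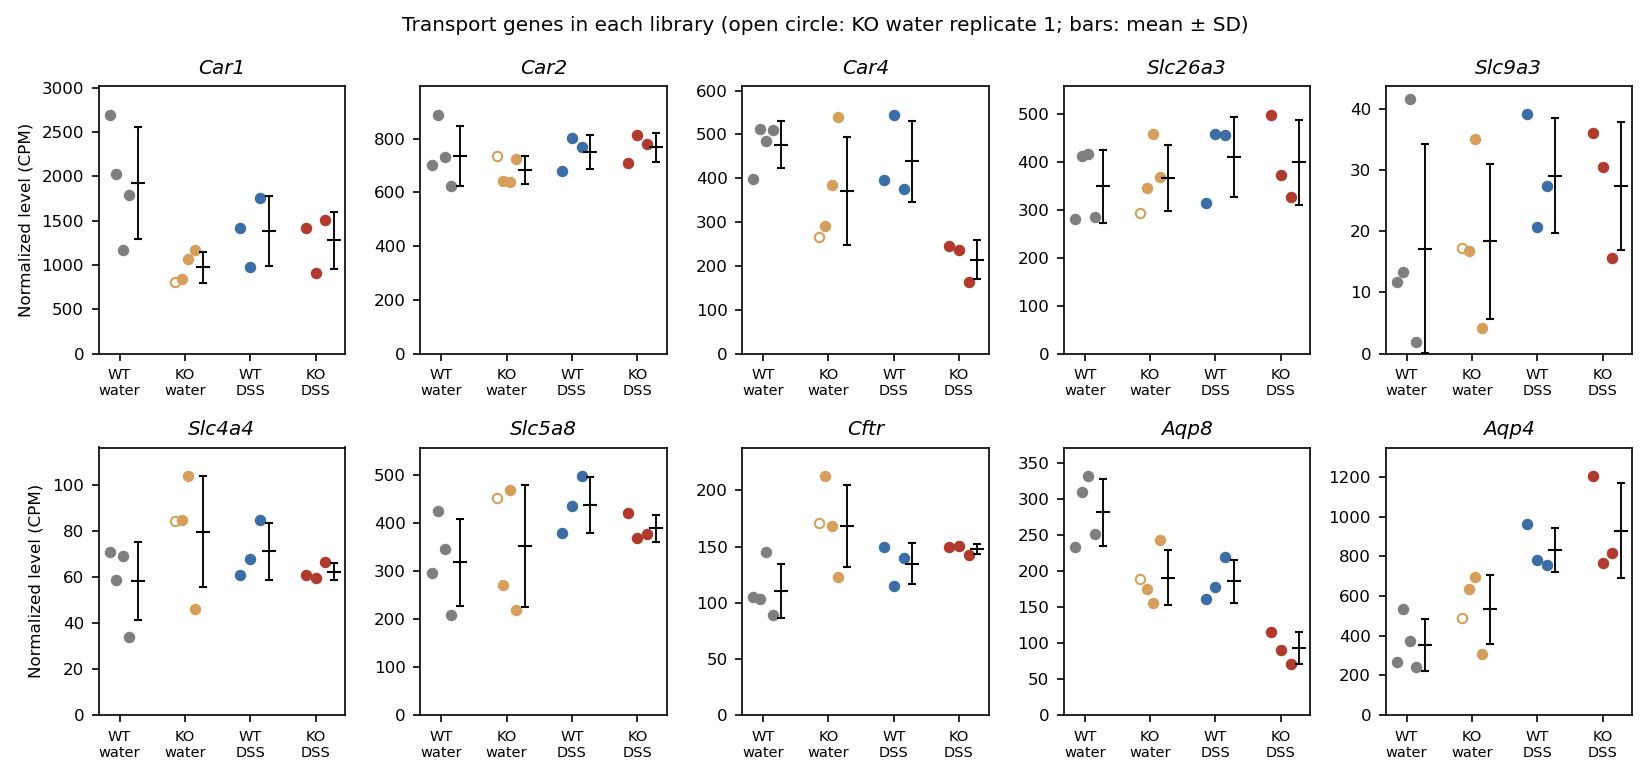
Level of each transport gene in every library in CPM (vertical axes from 0), by group, with the mean and SD as bars and the library labelled KO water replicate 1 as an open circle. The KO libraries after DSS lie below all others for Car4 (163 to 244) and Aqp8 (71.4 to 116), and the water libraries of WT lie above those of KO for Car1.

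On water, the question is whether the genotypes differ before injury. None of the 10 members was called, and 1 of 14568 genes was (0.00686%), with 3057 genes at an unadjusted p under 0.05. The members' log2 fold changes ran from -0.98 for Car1 to 0.61 for Cftr. Their median was 0.09, against -0.01 over all genes tested.

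Car1 had 2698, 2029.8, 1169 and 1787 CPM in WT and 812, 845, 1063 and 1166 in KO on water. It was the one member whose groups did not overlap, by a margin of 1169 against 1166, where 10.7% of all genes tested did not. Its log2 fold change was -0.98 (SE 0.26, edgeR adjusted p = 0.15), and -0.90 (SE 0.30, edgeR adjusted p = 0.19) without KO water replicate 1. Cftr had 105, 103, 145 and 88.6 CPM in WT and 171, 213, 168 and 123 in KO (log2 fold change 0.61, SE 0.20, edgeR adjusted p = 0.16), so 3 of the 4 KO libraries were above every WT library. Aqp8 had 234, 309, 332 and 251 CPM in WT and 189, 174, 155 and 244 in KO (-0.56, SE 0.19, edgeR adjusted p = 0.16), with 3 of the 4 KO libraries below every WT library. In Cftr and Aqp8 the KO library nearest to WT was replicate 4, which had 21.4% mitochondrial counts.

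Without KO water replicate 4, Car1 (edgeR adjusted p = 0.036), Cftr (0.034) and Aqp8 (0.033) were called, as were 1816 genes in all (12.6%). Car1 and Cftr were also called when all 14 libraries were fitted in 1 model (edgeR adjusted p = 0.035 and 0.042, with 8.44% of genes called), and Car1 with DESeq2 (adjusted p = 0.0081, with 5.81% of genes called). Without KO water replicate 1 none of the 10 was called and 0.0904% of genes were. With the name prefix as a block the log2 fold changes were -0.55 for Car1, 0.43 for Cftr and -0.53 for Aqp8, and none was called. On water the prefix D holds only WT libraries and MS only a KO library. That fit therefore compared WT replicates 3 and 4 with KO replicates 1, 2 and 4, within the prefixes Z and MP. These include KO water replicate 1 and all libraries over 20% mitochondrial counts. Among the libraries under 20% mitochondrial counts, a limit chosen after seeing the data, the log2 fold changes were -1.37 (SE 0.23) for Car1, 0.82 (SE 0.18) for Cftr and -0.64 (SE 0.19) for Aqp8.

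Without KO water replicate 1, Cftr was at 0.60 (SE 0.23) and Aqp8 at -0.56 (SE 0.22). The other members did not separate the genotypes on water. Car4 had 399, 513, 484 and 510.4 CPM in WT and 267, 290.2, 385 and 539 in KO, with 3 of the 4 KO libraries below every WT library and replicate 4 above all of them (log2 fold change -0.36, SE 0.23, edgeR adjusted p = 0.37). Aqp4 had 266, 533, 376 and 242 CPM in WT and 489, 635, 698 and 308 in KO (0.59, SE 0.30, edgeR adjusted p = 0.28). Slc9a3 varied most within a group, from 1.92 to 41.7 CPM in WT and from 4.17 to 35.2 in KO, with the lowest value of each genotype in replicate 4. Car2, Slc26a3, Slc4a4 and Slc5a8 had log2 fold changes of -0.10, 0.07, 0.45 and 0.15 and edgeR adjusted p from 0.35 to 0.87. Without KO water replicate 1 the log2 fold changes were -0.23 for Car4, 0.63 for Aqp4, 0.13 for Slc9a3, -0.14 for Car2, 0.17 for Slc26a3, 0.43 for Slc4a4 and 0.0075 for Slc5a8.

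In WT epithelium the DSS and water libraries did not overlap for Aqp4 and Aqp8 and overlapped for the other 8 members. Groups that do not overlap were found for 25.2% of all genes tested here, so this alone does not set the water channels apart. Aqp4 was at 242 to 533 CPM on water and 758 to 962 after DSS (log2 fold change 1.23, SE 0.26, edgeR adjusted p = 0.085), and Aqp8 was at 234 to 332 on water and 161 to 219 after DSS (-0.60, SE 0.17, edgeR adjusted p = 0.096). Neither passed the threshold. Of 14407 genes edgeR called 0 (0%), with 3612 at an unadjusted p under 0.05. DESeq2 called Aqp4 (adjusted p = 0.00034) and Aqp8 (0.017) among 1671 genes (12.0%), and edgeR without WT water replicate 2 called Aqp4 (adjusted p = 0.046) among 455 genes (3.20%). Within the name prefix D the log2 fold changes were 1.13 (SE 0.31) for Aqp4 and -0.68 (SE 0.16) for Aqp8. Mitochondrial genes held 6.42% to 32.8% of the counts of the WT libraries on water and 4.54% to 6.87% after DSS, and among libraries under 20% the log2 fold changes were 1.06 (SE 0.28) for Aqp4 and -0.55 (SE 0.17) for Aqp8. Among the other 8, Slc5a8 (0.46, SE 0.22, edgeR adjusted p = 0.22), Car1 (-0.48, SE 0.29, edgeR adjusted p = 0.33) and Slc9a3 (0.76, SE 0.66, edgeR adjusted p = 0.50) were farthest from 0, and Car4 was at -0.12 (SE 0.17, edgeR adjusted p = 0.69).

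In KO epithelium the DSS libraries lay apart from the water libraries for Aqp8 and Aqp4 and for Car4. Aqp8 was at 155 to 244 CPM on water and 71.4 to 116 after DSS (log2 fold change -1.04, SE 0.22, edgeR adjusted p = 0.28). Car4 was at 267 to 539 CPM on water and 163 to 244 after DSS (-0.79, SE 0.26, edgeR adjusted p = 0.72). Aqp4 was at 308 to 698 CPM on water and 768 to 1205 after DSS (0.81, SE 0.27, edgeR adjusted p = 0.72). Groups that do not overlap were found for 8.98% of all genes tested here. None of the 10 members was called by edgeR, as was 1 of 14409 genes (0.00694%), with 943 at an unadjusted p under 0.05, and DESeq2 called Aqp8 (adjusted p = 0.0036) among 72 genes (0.472%). Without KO water replicate 1 the log2 fold changes were -1.05 for Aqp8, -0.92 for Car4 and 0.77 for Aqp4, and none was called. Among libraries under 20% mitochondrial counts, which leaves out KO water replicate 4, they were -0.90 for Aqp8, -0.54 for Car4 and 0.62 for Aqp4.

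Whether the response to DSS differed between the genotypes was tested as an interaction over all 14 libraries. None of the 10 members was called, and 1 of 15127 genes was (0.00661%), with 1135 at an unadjusted p under 0.05. The largest differences were those of Car1 (0.87 on the log2 scale, SE 0.38, edgeR adjusted p = 0.64) and Car4 (-0.67, SE 0.33, edgeR adjusted p = 0.64), and that of Aqp8 was -0.44 (SE 0.28, edgeR adjusted p = 0.69). Without KO water replicate 1 these differences were 0.80 (SE 0.40), -0.80 (SE 0.32) and -0.44 (SE 0.30), and none was called. The comparisons with a shared group are not independent of each other, since WT after DSS enters both the genotype comparison after DSS and the DSS comparison in WT.

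**Figure D4:**
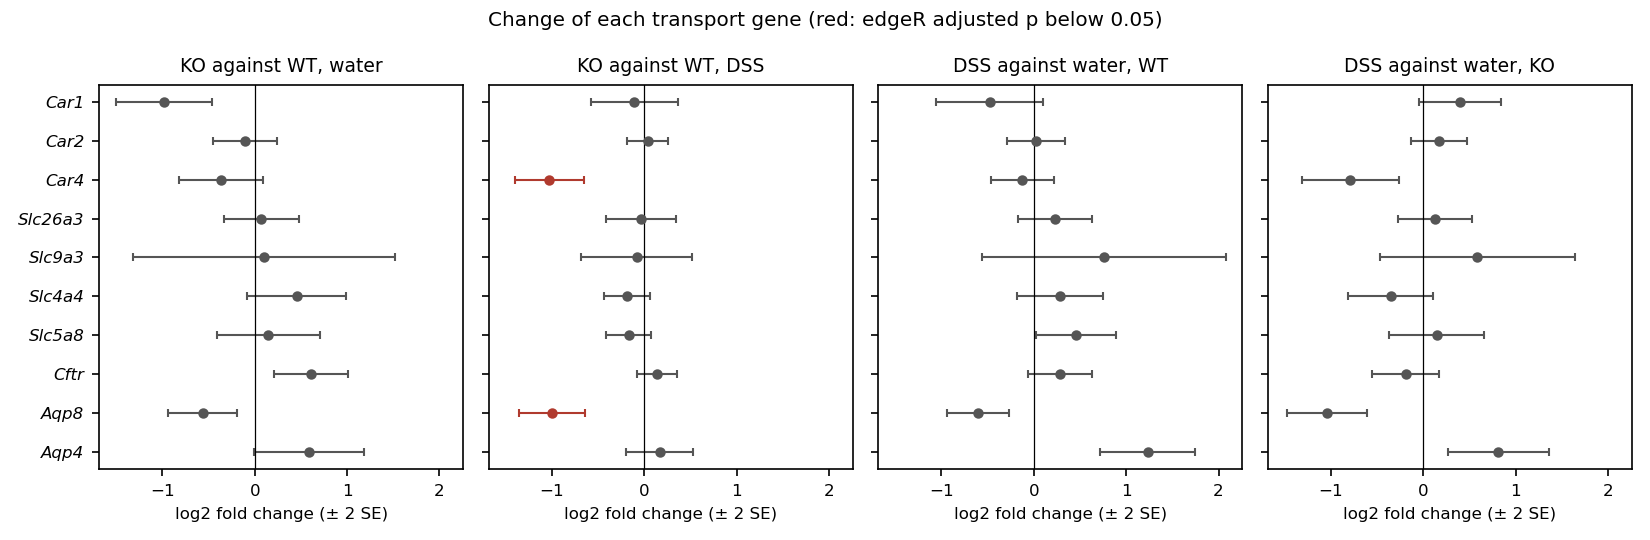
Log2 fold change of each transport gene in the 4 comparisons, with bars of 2 SE to each side and red where the edgeR adjusted p is below 0.05. Car4 (-1.03) and Aqp8 (-1.0) after DSS are the 2 red points, and Aqp4 after DSS in WT (1.23) is the largest change that was not called.

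The other genes of the same transport systems were read from 7 lists of 78 genes, of which 53 passed the filter in the comparison after DSS. In KO against WT after DSS 1 of the 53 rose and 2 fell, where 0.801% of all genes tested were called, and the median of the 53 was -0.09 against 0.0044 over all genes. Ano1, a calcium-activated chloride channel, had 115, 128 and 129.9 CPM in WT and 41.9, 55.2 and 57.2 in KO after DSS. The groups were far apart (log2 fold change -1.27, SE 0.13, edgeR adjusted p = 0.0042), and the call held in 11 of 13 alternatives, though not in the models of 14 and 13 libraries. Ano1 on water was at -0.55 (SE 0.36, edgeR adjusted p = 0.40), and at -1.05 (SE 0.28, edgeR adjusted p = 0.16) without KO water replicate 1. Slc12a2, the basolateral sodium-potassium-chloride cotransporter that loads crypt cells for chloride secretion, had 408, 309 and 432 CPM in WT and 710.2, 621 and 608 in KO (0.76, SE 0.14, edgeR adjusted p = 0.046), and was called in 3 of 13 alternatives, with the call lost without any 1 of the 6 libraries. On water it had 335 to 473 CPM in WT and 630.0 to 1067 in KO, again without overlap, as for 10.7% of all genes tested (1.06, SE 0.22, edgeR adjusted p = 0.15). Without KO water replicate 1 that change was 1.15 (SE 0.23, edgeR adjusted p = 0.12). That change on water was called with all 14 libraries in 1 model (edgeR adjusted p = 0.021) and with DESeq2 (adjusted p = 0.00087). Chp2, a calcineurin-like partner of sodium-proton exchangers, had 61.7, 66.3 and 64.2 CPM in WT and 41.5, 40.6 and 33.9 in KO after DSS (-0.73, SE 0.10, edgeR adjusted p = 0.018), and was called in 6 of 13 alternatives, with the call lost without WT DSS replicate 2 or 3 or KO DSS replicate 2 or 3.

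The remaining lists had no member called after DSS. The 8 carbonic anhydrases tested beside the members had a median of -0.0035, with Car8 at 0.42 and Car9 at -0.01. The 8 anion exchangers and bicarbonate cotransporters had a median of -0.04, with Slc26a2, a sulfate transporter, at -0.24 and Slc4a2, a basolateral anion exchanger, at -0.14. Of the other 9 aquaporins listed 2 were tested, Aqp1 (0.19) and Aqp11 (-0.11). The 6 genes of monocarboxylate transport had a median of -0.03, with Bsg at -0.10 and Slc16a1 at 0.04. Slc16a3, a lactate exporter named after its values were seen, had 7.72, 6.53 and 10.1 CPM in WT and 14.5, 19.6 and 13.2 in KO, without overlap (0.96, SE 0.21, edgeR adjusted p = 0.078). The 6 genes of the sodium and proton pumps had a median of -0.10, with Atp1b1 at -0.19. In the other 4 comparisons none of the 54 or 55 listed genes tested was called by edgeR with each comparison fitted as reported. Of the 3 genes called after DSS, which were followed through the alternatives, Slc12a2 was called on water in 7 of 17, Ano1 on water in 1 of 17 and Chp2 for the difference of the responses in 1 of 21.

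**Figure D5:**
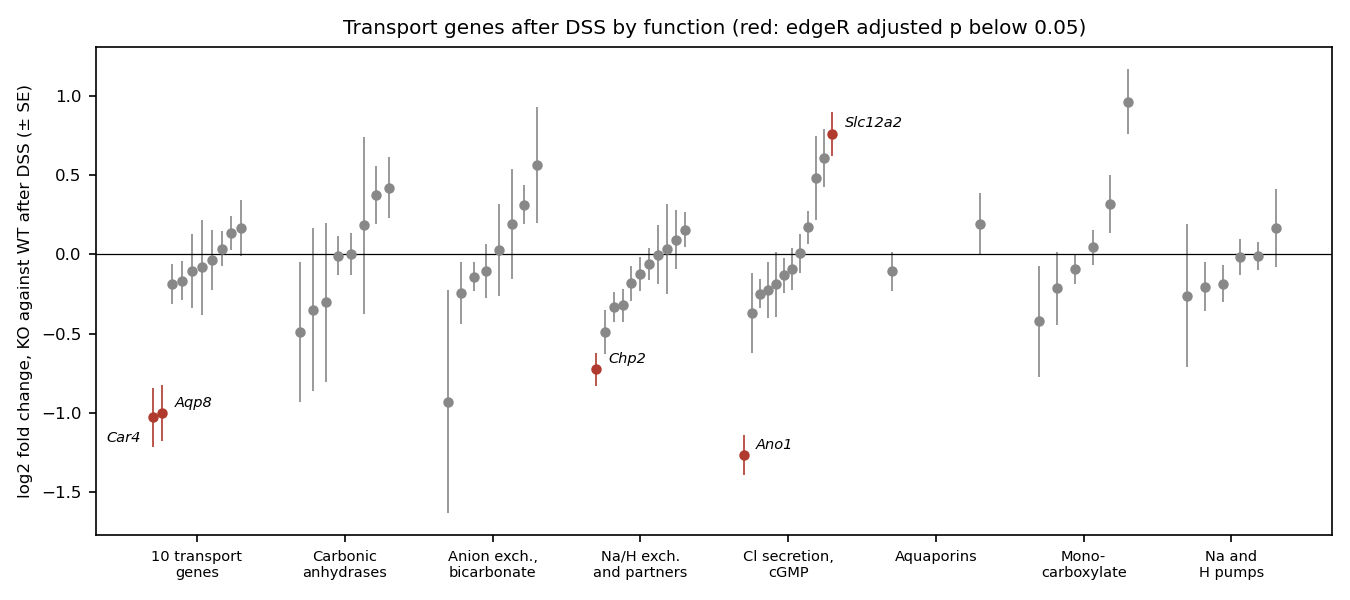
Log2 fold change with its SE, KO against WT after DSS, for the 10 transport genes and for the tested genes of 7 lists of related transport functions, ordered by value within each list. The 5 red points are Car4, Aqp8, Chp2 and Ano1, which were lower, and Slc12a2, which was higher.

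Over the 14 libraries, Car4 and Aqp8 had the closest pattern of any pair of members, with a Pearson r of 0.85 of log2 CPM, and the libraries share groups, so this r describes these samples only. Among 10623 other genes with a mean of at least 5 CPM, the genes most like each member by the same measure were Nlrp9b (0.90) and Mkrn1 (0.89) for Car4, Sectm1b (0.89) and Aspa (0.89) for Aqp8, Apaf1 (0.95) and Sqle (0.94) for Aqp4, Vsig2 (0.84) and Tmem98 (0.79) for Car1, and Plin3 (0.91) and Klhl22 (0.91) for Car2. For the transporters and the channel they were 1600021P15Rik (0.84) and Pak1 (0.80) for Slc26a3, Luzp1 (0.94) and Gak (0.93) for Slc9a3, Pi4ka (0.91) and Rb1 (0.91) for Slc4a4, Acly (0.96) and Nr3c2 (0.94) for Slc5a8, and Alkbh8 (0.96) and Arl5a (0.95) for Cftr. Correlations of the members' log2 CPM with the mitochondrial share of the library ran from -0.73 for Aqp4 to 0.56 for Aqp8, with Car4 at 0.52. The part of that share in the likeness of Car4 and Aqp8 was not tested. The 10 members together held 0.35% to 0.53% of the normalized counts of a library.

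Cftr overlaps 2 annotated genes, Gm15592 on the opposite strand and the pseudogene Gm15595, which had at most 15 and 8 counts in any library, and Slc26a3 overlaps the pseudogene Gm9359, which had 0, and how reads in the overlaps were assigned is not given in the sources used here.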

How the data were processed

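Poly(A) RNA-seq libraries of mouse colon epithelium (14) were analysed. The deposited values are raw read counts per gene, which the authors made by aligning reads with HISAT2 to mm9 and counting with featureCounts, while the annotation release and the strand setting are not given in the sources used here. Gene names and positions came from GENCODE M1 (37310 of 37680 identifiers) and promoters from RefSeq (GRCm38.p6). The members and gene lists were chosen with earlier results of these data known. Genes that reached 10 counts in 3 or more libraries of a comparison were tested with the two-sided quasi-likelihood test of edgeR 4.0.16 (R 4.3.3) after TMM normalization, with Benjamini-Hochberg adjustment over all genes tested and a threshold of 0.05. Each pair of groups was fitted alone, since the study describes pairwise comparisons, and the difference of the DSS responses with all 14 libraries. An earlier report of these data had fitted all 14 libraries in 1 model. That model was made an alternative because KO water replicate 1, whose Smad4 level goes against its label, was taken to add to the shared spread. Leaving that library out of the joint model still gave 0 members called in KO against WT after DSS, with 8 of 15074 genes called. The pairwise fits were thus chosen with earlier results known. The fits were tested on simulated data. CPM used the TMM library sizes, and tables were made in Python 3.11.15. Alternatives were DESeq2 1.42.0, its size factors in edgeR, no filter, joint models, a replicate block, the library name prefix, the mitochondrial share and each library left out. Besides the members and Smad4, each pathway list contributed up to 3 called genes with the largest change, or up to 2 with the highest level where none was called, and likeness contributed 2 genes per member with a mean of at least 5 CPM. One gene that this rule names is not reported here. Marker genes that were called are also named, chosen after their values were seen. Precision depends on the counts of a library and on the spread between libraries.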

Additional observations from a re-analysis of the deposited data

Results flagged for a closer look

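Smad4 stood apart in 1 library. The library labelled KO water replicate 1 had 158 CPM of Smad4, against 35.0 to 46.7 CPM in the other 3 KO water libraries and 118 to 159 CPM in WT on water, and its gap to the nearest library of its group passed Dixon's limit for 4 samples. Its Car1 (812 CPM) and Car4 (267 CPM) were the lowest values of the KO water group. No value of a transport gene stood apart from its group by the same measure in the groups of 4, and groups of 3 were not tested. The cause was not tested.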

How the results depend on the processing

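Over the alternatives, 735 of 810 log2 fold changes of the members kept their direction and side of the threshold, 44 turned in direction, 14 passed the threshold and 17 lost it. Only the 2 calls made, Car4 and Aqp8 after DSS, could be lost, so all 17 losses were theirs. Car4 stayed called in 4 of 13 alternatives and Aqp8 in 5 of 13. After DSS, where 2 members were called in KO against WT, 0 were called with all 14 or 13 libraries in 1 model or within the name prefix D, and 0 to 1 with 1 library left out. On water, where none was called, 2 were with all 14 libraries in 1 model, 1 with DESeq2, 1 with libraries under 20% mitochondrial counts, 2 when KO water replicate 1 was also left out, and 0 to 3 with 1 library left out. The limit of 20% called 106 of 14184 genes in all, and 999 of 13829 when KO water replicate 1 was also left out. For DSS against water, DESeq2 called 2 in WT and 1 in KO, edgeR without a filter called 1 in WT, and 0 to 1 (WT) and 0 (KO) were called with 1 library left out. Without a filter edgeR called 457 of 22277 genes in WT. No alternative called a member for the difference of the responses. The number of genes called in all ranged over the settings from 2 to 490 (genotype, after DSS), 1 to 1816 (genotype, on water), 0 to 1671 (DSS, in WT), 1 to 72 (DSS, in KO) and 1 to 793 (difference of the responses). The joint models of 13 libraries and the limits on mitochondrial share were chosen after seeing the data. Causes were not tested.

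These log2 fold changes turned in direction. Within the prefix D, KO against WT after DSS gave 0.10 for Car1 and 0.048 for Slc26a3, and DSS against water in WT gave -0.10 for Car2, 0.046 for Car4 and -0.0085 for Slc4a4. With the prefix as a block, KO against WT on water gave 0.039 for Car2, -0.072 for Slc26a3 and -0.56 for Slc9a3. That fit on water compared the genotypes only within the prefixes Z and MP. With the same block the difference of the responses gave 0.11 for Slc26a3 and 0.49 for Slc9a3. With libraries under 20% mitochondrial counts, DSS against water gave -0.081 for Car2 in WT and -0.026 for Slc5a8 in KO, and -0.0072 for Slc26a3 in KO when KO water replicate 1 was also left out. Leaving out 1 library gave, for KO against WT after DSS, -0.30 to 0.10 for Car1, -0.032 to 0.094 for Car2, -0.23 to 0.092 for Slc26a3, -0.32 to 0.20 for Slc9a3 and -0.063 to 0.29 for Aqp4. On water it gave -0.18 to 0.0070 for Car2, -0.053 to 0.17 for Slc26a3, -0.42 to 1.01 for Slc9a3 and -0.021 to 0.33 for Slc5a8. For DSS against water it gave -0.044 to 0.14 for Car2 in WT, and -0.070 to 0.25 for Slc26a3 and -0.026 to 0.30 for Slc5a8 in KO. For the difference of the responses it gave -0.30 to 0.017 for Slc26a3 and -1.09 to 0.34 for Slc9a3.

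With the replicate number as a replicate block, 1 member was called after DSS, Car4 (edgeR adjusted p = 0.036), and Aqp8 was not (0.093), while Car2 in DSS against water in WT turned to -0.039. That block called 52 of 14241 genes in KO against WT after DSS. Deviations of same-numbered libraries from their group means had correlations from -0.08 to 0.06, except for replicate 4 on water (0.35). The WT and KO libraries of replicate 4 share the name prefix MP and had 32.8% and 21.4% mitochondrial counts. With groups this small, correlations near 0 do not show a pairing and cannot exclude one.

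Slc9a3 was the least precise member, with an SE of 0.71 on water and values from 1.92 to 41.7 CPM within WT.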
